A study of Rattus norvegicus with 52 samples.

Results

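The genes described here are 27 members of the cholesterol synthesis pathway and of the SREBP2 system that controls it, measured in rat lung after instillation of quaternary ammonium compounds into the trachea. They were chosen by name, from pathway knowledge, and not by a cut on measured values, but with earlier results of these data known. Counts of members called are therefore descriptions and not an independent test of the list. All 27 symbols were found among the 34034 symbols of the count files, and all 27 passed the filter on low counts that left 17796 genes tested. By role they fall into 8 genes of the mevalonate and isoprenoid steps (Acat2, Hmgcs1, Mvk, Pmvk, Mvd, Idi1, Fdps, Ggps1), 3 of the squalene and lanosterol steps (Fdft1, Sqle, Lss), 8 of the steps from lanosterol to cholesterol (Cyp51, Tm7sf2, Msmo1, Nsdhl, Hsd17b7, Ebp, Sc5d, Dhcr7), 4 that code for SREBP2 and its regulators (Srebf2, Scap, Insig1, Insig2) and 4 of sterol and lipid handling (Stard4, Soat1, Abca1, Lpin1).

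Lungs of SD rats labelled WT were profiled by 3' mRNA sequencing after a single intratracheal instillation of 1 of 4 quaternary ammonium compounds, cationic surfactants used as disinfectants. The labels name the compounds ABD, ADEB18, BKC and DDAC, and BKC and DDAC are the usual short forms of benzalkonium chloride and didecyldimethylammonium chloride. Doses ran over 0.0625, 0.125 and 0.25 for DDAC, over 0.125, 0.25 and 0.5 for ABD and for ADEB18, and over 0.25, 0.5 and 1 for BKC. The labels leave out their unit, and the 4 Control rats received DW in the same way. Each of the 13 groups held 4 lungs with 1 library each, 52 in all, and the sources used here do not give age, sex or the time between instillation and sampling.

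Cells make cholesterol from acetyl-CoA by way of mevalonate, farnesyl diphosphate, squalene and lanosterol. The genes of nearly every step are switched on by the transcription factor SREBP2, coded by Srebf2, which is held in the endoplasmic reticulum by the escort protein SCAP and by INSIG proteins while sterols are plentiful. When membrane sterol falls, the SCAP and SREBP2 complex travels to the Golgi, SREBP2 is cut free, and it enters the nucleus. Oxysterols have the opposite role through liver X receptors, which switch on the efflux pump gene Abca1. In the lung, alveolar type 2 cells use sterols and phospholipids for surfactant, and alveolar macrophages clear them.

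Of the 27 members, 23 had an entry in the RefSeq promoter table of build GRCr8, and Sqle, Fdft1, Pmvk and Stard4 had none. The 250 bases before the start of each gene were searched on both strands for CCAAT, the box bound by NF-Y, for GGGCGG, the box bound by Sp1, and for TCACNCCAC, the classical sterol regulatory element. CCAAT stood in 18 of the 23 promoters (78.3%), against 34.0% of all 33469 promoters in the table and 34.2% of the 16014 promoters of genes tested. GGGCGG also stood in 18 of the 23, against 30.5% of all promoters and 48.7% of those of genes tested. TCACNCCAC was in 0 of the 23 and in 0.974% of all promoters. After the sequences were seen, TCACACGAG, the form of the element described in the rat Fdps promoter, was searched too, and it stood in Fdps alone among the 23 and in 0.0986% of all promoters. Such matches are descriptions of letters and not measured binding sites. Of the 6 members called in 3 comparisons with Control, the promoters of the 5 with the smallest adjusted p are printed 5′ to 3′ on the strand of the gene, to show where these boxes lie in the genes that carry the main result, with capitals for each match on either strand.
Cyp51 (GRCr8 chr4:30991443-30991692, plus strand): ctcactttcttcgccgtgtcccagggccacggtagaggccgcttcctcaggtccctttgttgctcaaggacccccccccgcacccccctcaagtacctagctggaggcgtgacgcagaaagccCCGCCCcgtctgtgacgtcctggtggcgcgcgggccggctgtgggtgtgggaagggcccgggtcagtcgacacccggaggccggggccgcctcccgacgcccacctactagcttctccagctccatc
Acat2 (GRCr8 chr1:50100590-50100839, plus strand): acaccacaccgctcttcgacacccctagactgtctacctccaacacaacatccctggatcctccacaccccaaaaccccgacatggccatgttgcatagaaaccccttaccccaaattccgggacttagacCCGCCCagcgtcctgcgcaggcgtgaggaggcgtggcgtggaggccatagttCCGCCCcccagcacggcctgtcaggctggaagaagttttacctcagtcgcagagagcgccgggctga
Fdps (GRCr8 chr2:176804817-176805066, minus strand): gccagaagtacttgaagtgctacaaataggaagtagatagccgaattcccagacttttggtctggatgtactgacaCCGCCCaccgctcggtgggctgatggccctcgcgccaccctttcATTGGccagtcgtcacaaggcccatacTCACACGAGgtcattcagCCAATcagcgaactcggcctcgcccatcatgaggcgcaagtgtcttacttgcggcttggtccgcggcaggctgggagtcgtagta
Lss (GRCr8 chr20:12118231-12118480, minus strand): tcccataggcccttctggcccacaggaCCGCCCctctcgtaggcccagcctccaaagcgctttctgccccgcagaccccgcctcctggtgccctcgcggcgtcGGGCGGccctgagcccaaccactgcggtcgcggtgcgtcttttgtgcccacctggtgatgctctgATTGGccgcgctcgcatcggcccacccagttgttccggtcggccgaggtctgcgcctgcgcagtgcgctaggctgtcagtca
Tm7sf2 (GRCr8 chr1:212789542-212789791, minus strand): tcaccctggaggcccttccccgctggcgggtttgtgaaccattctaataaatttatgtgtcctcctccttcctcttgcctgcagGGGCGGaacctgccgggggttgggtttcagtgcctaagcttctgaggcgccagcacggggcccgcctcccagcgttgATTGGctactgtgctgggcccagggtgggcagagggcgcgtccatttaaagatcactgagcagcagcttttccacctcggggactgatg
In these 5, Fdps holds a CCAAT box on each strand around its TCACACGAG, Lss and Tm7sf2 hold an inverted CCAAT box, written ATTGG, and Cyp51 and Acat2 hold GGGCGG boxes in inverted form, with no CCAAT in this window.

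Total counts per library ran from 8026084 to 13852249, with 16932 to 19355 genes counted at least once, and no pair of libraries held identical counts. The lung markers Sftpc, Sftpb, Ager, Scgb1a1 and Cldn5 were present in every library, Sftpc at 6439.6 to 13181 CPM and Cldn5 at 121 to 354 CPM. CPM are counts scaled to TMM library sizes, so that libraries of different depth can be compared. Raw counts of the members were enough for a test throughout, with the lowest medians over libraries for Mvd (97.5 counts), Hsd17b7 (127.5 counts) and Dhcr7 (142 counts) and the highest for Srebf2 (2279 counts). Because each transcript is read at its 3' end, levels are compared between groups and not between genes. In whole lung, fewer cells of a type and less RNA per cell cannot be told apart. Acat2 and Idi1 each overlap another tested gene (LOC102553528 by 111 bases, Wdr37 by 100 bases) in the reference table, and the sources used here do not give the strand setting of the counting. No source used here ties a library to a shared litter, batch or day.

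The comparisons of each dosed group with Control ask which transcripts differ after each compound and dose. Cholesterol synthesis genes rose in 3 of the 12 dosed groups, ADEB18 at 0.5 and BKC at 0.5 and at 1. Calls were made by edgeR's quasi-likelihood test at a Benjamini-Hochberg adjusted p under 0.05, taken over the 17796 genes. By this test 10 of the 27 members rose with ADEB18 at 0.5, where 2.56% of all genes tested were called higher. With BKC, 8 members rose at 0.5, against a background of 4.86%, and 11 rose at 1, against a background of 5.79%. The median log2 fold change of the 27 was 0.44 for ADEB18 at 0.5, 0.46 for BKC at 0.5 and 0.48 for BKC at 1, while the median of all genes tested lay between -0.01 and 0.00. No member was called lower in these 3 comparisons. At an unadjusted p under 0.05, 17, 16 and 18 members were higher and 0, 1 and 2 were lower, in the same order. The comparisons share the 4 Control libraries, so their results are set side by side and not counted as independent.

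In all 3 of these groups, 6 genes were called: Acat2, Fdps, Lss, Cyp51, Tm7sf2 and Hsd17b7. The count for ADEB18 at 0.5 dropped to 6 without Control replicate 2, 5 without Control replicate 4, 3 without ADEB18 0.5 replicate 2 and 4 without ADEB18 0.5 replicate 3, and Lss, Cyp51 and Tm7sf2 were called in every leave-one-out fit. For BKC at 0.5 the count was 5 without Control replicate 2, 3 or 4 or BKC 0.5 replicate 3, and 4 without BKC 0.5 replicate 2, with Acat2, Fdps, Cyp51 and Tm7sf2 called each time. For BKC at 1 it stayed between 9 and 13, and Acat2, Idi1, Fdps, Lss, Cyp51, Tm7sf2, Msmo1 and Hsd17b7 were called each time.

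In the other 9 dosed groups, 1 call was made among the members. ABD had 0 members called at any dose, where 0%, 0.0225% and 0.0169% of all genes were called at 0.125, 0.25 and 0.5. An unadjusted p under 0.05 was reached by 2, 3 and 4 members at these doses, of which 2, 3 and 3 were lower, and DESeq2 called 0 at each. ADEB18 at 0.125 and at 0.25 had 0 called, where 0.0393% of all genes were called at each dose, with 7 members (6 of them lower) and 2 members (both lower) at an unadjusted p under 0.05 and 0 by DESeq2. BKC at 0.25 also had 0 called against a background of 0.208%, with 4 members (2 higher and 2 lower) at an unadjusted p under 0.05 and 0 by DESeq2. DDAC at 0.0625 and 0.25 had 0 members called, where 2.32% and 2.47% of all genes were called, a share that would be under 1 of 27 genes. Here 7 members reached an unadjusted p under 0.05 at each of these doses, 6 of them lower at 0.0625 and 5 of them lower at 0.25, and DESeq2 called 1 member at 0.0625 and 0 at 0.25. At DDAC 0.125, Stard4 alone fell, where 0.893% of all genes were called lower.

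**Figure D1:**
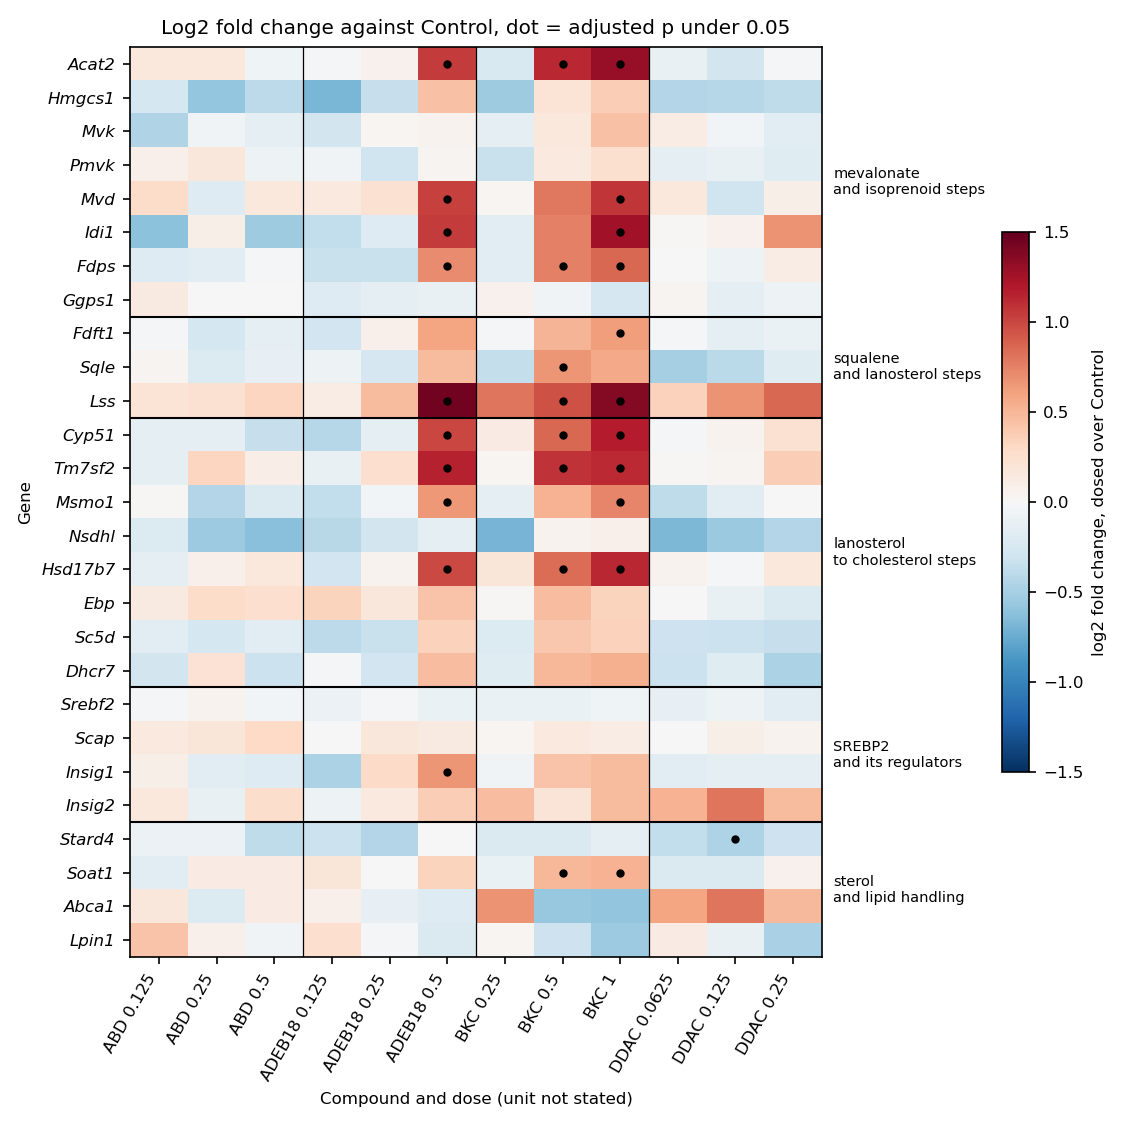
Log2 fold change of each of the 27 members (rows, grouped by role) in each of the 12 dosed groups over Control (columns, low to high dose within a compound), with a dot where the adjusted p was under 0.05. Dots fall on 10 members for ADEB18 at 0.5, on 8 and 11 for BKC at 0.5 and 1, and on Stard4 for DDAC at 0.125.

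Of the 8 genes of the mevalonate and isoprenoid steps, 4 rose with ADEB18 at 0.5 (Acat2, Mvd, Idi1 and Fdps), 2 with BKC at 0.5 (Acat2 and Fdps) and 4 with BKC at 1 (Acat2, Mvd, Idi1 and Fdps). Acat2 codes for the cytosolic acetyl-CoA acetyltransferase that makes acetoacetyl-CoA, where the pathway begins. It had 68.3, 134, 109 and 83.2 CPM in ADEB18 0.5 lungs, 94.3, 139.8, 95 and 88.6 CPM in BKC 0.5 lungs and 109, 127, 105 and 131 CPM in BKC 1 lungs, against 50.1, 54.1, 44.4 and 42.3 CPM in Control lungs. All 12 dosed lungs lay above all 4 Control lungs, and the mean was 118 ± 12.8 CPM in BKC 1 and 47.7 ± 5.41 CPM in Control lungs (SD, n = 4 each). Of all genes tested, 8.34%, 6.47% and 7.94% had every lung above Control in ADEB18 0.5, BKC 0.5 and BKC 1. The log2 fold change was 1.04 ± 0.26 (SE, adjusted p = 0.0155) for ADEB18 at 0.5, 1.13 ± 0.26 (adjusted p = 0.00449) for BKC at 0.5 and 1.31 ± 0.27 (adjusted p = 0.00102) for BKC at 1. The ADEB18 call on Acat2 was lost without Control replicate 4 or ADEB18 0.5 replicate 2.

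Idi1 codes for the isomerase that turns isopentenyl diphosphate into dimethylallyl diphosphate. Its level was 68.4, 102, 109 and 70.4 CPM in ADEB18 0.5 lungs, 70.9, 79.9, 68.3 and 66.4 CPM in BKC 0.5 lungs and 115, 56.5, 85.9 and 148 CPM in BKC 1 lungs, against 41.1, 35.6, 35.8 and 56.3 CPM in Control lungs. No dosed lung overlapped Control, but BKC 1 replicate 2 stood just above the highest Control lung while BKC 1 replicate 4 was far higher. Idi1 rose by 1.05 ± 0.27 on the log2 scale with ADEB18 at 0.5 (adjusted p = 0.016) and by 1.27 ± 0.27 with BKC at 1 (adjusted p = 0.00155). With BKC at 0.5 its 0.76 ± 0.27 missed the threshold (adjusted p = 0.0631). The ADEB18 call on Idi1 was lost without Control replicate 2, ADEB18 0.5 replicate 2 or ADEB18 0.5 replicate 3.

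Fdps codes for farnesyl diphosphate synthase, whose product feeds both sterols and the lipid tails of prenylated proteins. CPM were 97.1, 164, 170.0 and 138 in ADEB18 0.5 lungs, 153, 186, 132 and 116 in BKC 0.5 lungs and 173, 143, 167 and 152 in BKC 1 lungs, against 93.1, 93.1, 76.2 and 86.4 in Control lungs. Every one of these dosed lungs was above Control, and ADEB18 0.5 replicate 1 was the closest to it. The rise in Fdps was 0.71 ± 0.18 (log2, adjusted p = 0.0154) with ADEB18 at 0.5, 0.75 ± 0.18 (adjusted p = 0.00512) with BKC at 0.5 and 0.87 ± 0.18 (adjusted p = 0.00121) with BKC at 1. Without Control replicate 4, ADEB18 0.5 replicate 2 or ADEB18 0.5 replicate 3 the ADEB18 call was lost.

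Among the other 5 genes of this branch, Mvd, the mevalonate diphosphate decarboxylase, rose by 1.03 ± 0.31 with ADEB18 at 0.5 (adjusted p = 0.0447) and 1.07 ± 0.31 with BKC at 1 (adjusted p = 0.0208). The Mvd call for ADEB18 at 0.5 was lost in 7 of the 8 leave-one-out fits, and that for BKC at 1 without Control replicate 2. Hmgcs1, the synthase that makes HMG-CoA, had log2 fold changes of 0.44, 0.21 and 0.37 in ADEB18 0.5, BKC 0.5 and BKC 1 lungs and did not pass in any. The mevalonate kinase gene Mvk and the phosphomevalonate kinase gene Pmvk ranged from 0.04 to 0.05 with ADEB18 at 0.5 and 0.24 to 0.44 with BKC at 1, without passing. Ggps1 makes geranylgeranyl diphosphate, a branch that leads away from sterols, and its values were -0.11, -0.05 and -0.25 in the same 3 groups. Mvk, Pmvk and Ggps1 were called in none of the 28 comparisons by edgeR.

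All 3 genes of the squalene and lanosterol steps had log2 fold changes above 0 in ADEB18 0.5, BKC 0.5 and BKC 1 lungs. Lss codes for lanosterol synthase, which closes the sterol rings. It had 47.2, 67.1, 77.1 and 43.2 CPM in ADEB18 0.5 lungs, 57, 35.9, 37.2 and 37.5 CPM in BKC 0.5 lungs and 73.8, 32.6, 59.9 and 56.7 CPM in BKC 1 lungs, against 19.4, 13.7, 27.5 and 25.5 CPM in Control lungs. The groups did not overlap, with BKC 1 replicate 2 the lowest of its group. Lss rose by 1.44 ± 0.32 on the log2 scale with ADEB18 at 0.5 (adjusted p = 0.00618), 0.96 ± 0.32 with BKC at 0.5 (adjusted p = 0.0451) and 1.37 ± 0.32 with BKC at 1 (adjusted p = 0.00333). The call at BKC 0.5 was lost in 6 of 8 leave-one-out fits, and the others in 0 of 8. Lss was also above all Control lungs with BKC at 0.25 (32.2, 36.1, 40.2 and 41.7 CPM) and with DDAC at 0.25 (33.9, 50.5, 41.9 and 30.3 CPM), though neither passed (adjusted p = 0.308 and 0.131). Of all genes tested, 3.36% and 6.1% were above all Control lungs in these groups.

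Sqle codes for squalene epoxidase, a slow step of the pathway, and Fdft1 for squalene synthase, which commits farnesyl diphosphate to sterols. Sqle rose by 0.67 ± 0.22 with BKC at 0.5 (log2, adjusted p = 0.0456), a call lost in 7 of 8 leave-one-out fits, and had 0.47 with ADEB18 at 0.5 and 0.56 with BKC at 1, below the threshold. Fdft1 rose by 0.63 ± 0.20 with BKC at 1 (adjusted p = 0.0299), lost without Control replicate 3, Control replicate 4 or BKC 1 replicate 3. Its other values were 0.59 with ADEB18 at 0.5 and 0.50 with BKC at 0.5.

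The 8 genes between lanosterol and cholesterol split into 4 that rose and 4 that did not pass against Control. Cyp51 codes for the cytochrome P450 enzyme that removes a methyl group from lanosterol, and it had the smallest adjusted p of the members in ADEB18 0.5, BKC 0.5 and BKC 1 lungs. It stood at 118, 149, 146 and 108 CPM in ADEB18 0.5 lungs, 147, 122, 107 and 94.3 CPM in BKC 0.5 lungs and 148, 109, 132 and 198 CPM in BKC 1 lungs, against 67.2, 61.2, 68.9 and 61.9 CPM in Control lungs. The Control lungs lay close together, and every lung of the 3 dosed groups was well above them. Cyp51 rose by 1.01 ± 0.20 with ADEB18 at 0.5 (log2, adjusted p = 0.00204), 0.86 ± 0.19 with BKC at 0.5 (adjusted p = 0.00352) and 1.18 ± 0.20 with BKC at 1 (adjusted p = 0.000141), and each call held in all 8 leave-one-out fits. In ABD 0.5 lungs (55.1, 50.9, 42.5 and 55.1 CPM) and ADEB18 0.125 lungs (52.2, 46.6, 47.2 and 47 CPM) Cyp51 had log2 fold changes of -0.35 ± 0.20 and -0.43 ± 0.20 that did not pass (adjusted p = 0.731 and 0.484).

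Tm7sf2 codes for a sterol reductase that acts after Cyp51. The libraries read 26.6, 26.4, 29.3 and 22.6 CPM in ADEB18 0.5 lungs, 25.2, 32.6, 22.5 and 19.6 CPM in BKC 0.5 lungs and 36, 25.8, 27.2 and 13.3 CPM in BKC 1 lungs, against 12.3, 15.6, 11.4 and 8.17 CPM in Control lungs. ADEB18 0.5 and BKC 0.5 did not overlap Control, whereas BKC 1 replicate 4 fell within the Control range. Its log2 fold change was 1.15 ± 0.26 (adjusted p = 0.00723), 1.08 ± 0.26 (adjusted p = 0.0053) and 1.11 ± 0.26 (adjusted p = 0.00338) for ADEB18 at 0.5, BKC at 0.5 and BKC at 1.

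Hsd17b7, Msmo1 and Nsdhl code for enzymes that strip methyl groups from the ring. Hsd17b7 had 14, 27.7, 26.1 and 18 CPM in ADEB18 0.5 lungs, 16, 26.1, 20.8 and 14.1 CPM in BKC 0.5 lungs and 22.2, 18.5, 25.3 and 28.5 CPM in BKC 1 lungs, against 9.09, 9.33, 9.16 and 15.5 CPM in Control lungs. Control replicate 4 stood apart from the other 3 Control lungs, and 1 lung of ADEB18 0.5 and 1 of BKC 0.5 lay below it. Hsd17b7 rose by 0.99 ± 0.27, 0.84 ± 0.27 and 1.13 ± 0.27 on the log2 scale in these groups (adjusted p = 0.024, 0.0388 and 0.00423), and the first and second of these calls were each lost in 5 of 8 leave-one-out fits.

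Msmo1, the methylsterol monooxygenase, had 102, 177, 167 and 120.2 CPM in ADEB18 0.5 lungs, 151, 153, 92.9 and 120.2 CPM in BKC 0.5 lungs and 140.1, 141, 158 and 161 CPM in BKC 1 lungs, against 116, 93.2, 82.6 and 68.7 CPM in Control lungs. Only BKC at 1 among these groups had no lung within the Control range. Msmo1 rose by 0.65 ± 0.18 with ADEB18 at 0.5 (adjusted p = 0.0326, lost in 5 of 8 leave-one-out fits) and by 0.73 ± 0.18 with BKC at 1 (adjusted p = 0.00729), and with BKC at 0.5 it had 0.52 ± 0.18 (adjusted p = 0.0642). The dehydrogenase gene Nsdhl, the isomerase gene Ebp, the desaturase gene Sc5d and the reductase gene Dhcr7, which acts last, did not pass against Control at any dose of any compound. In BKC 1 lungs their log2 fold changes were 0.08, 0.33, 0.34 and 0.54 in that order.

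**Figure D2:**
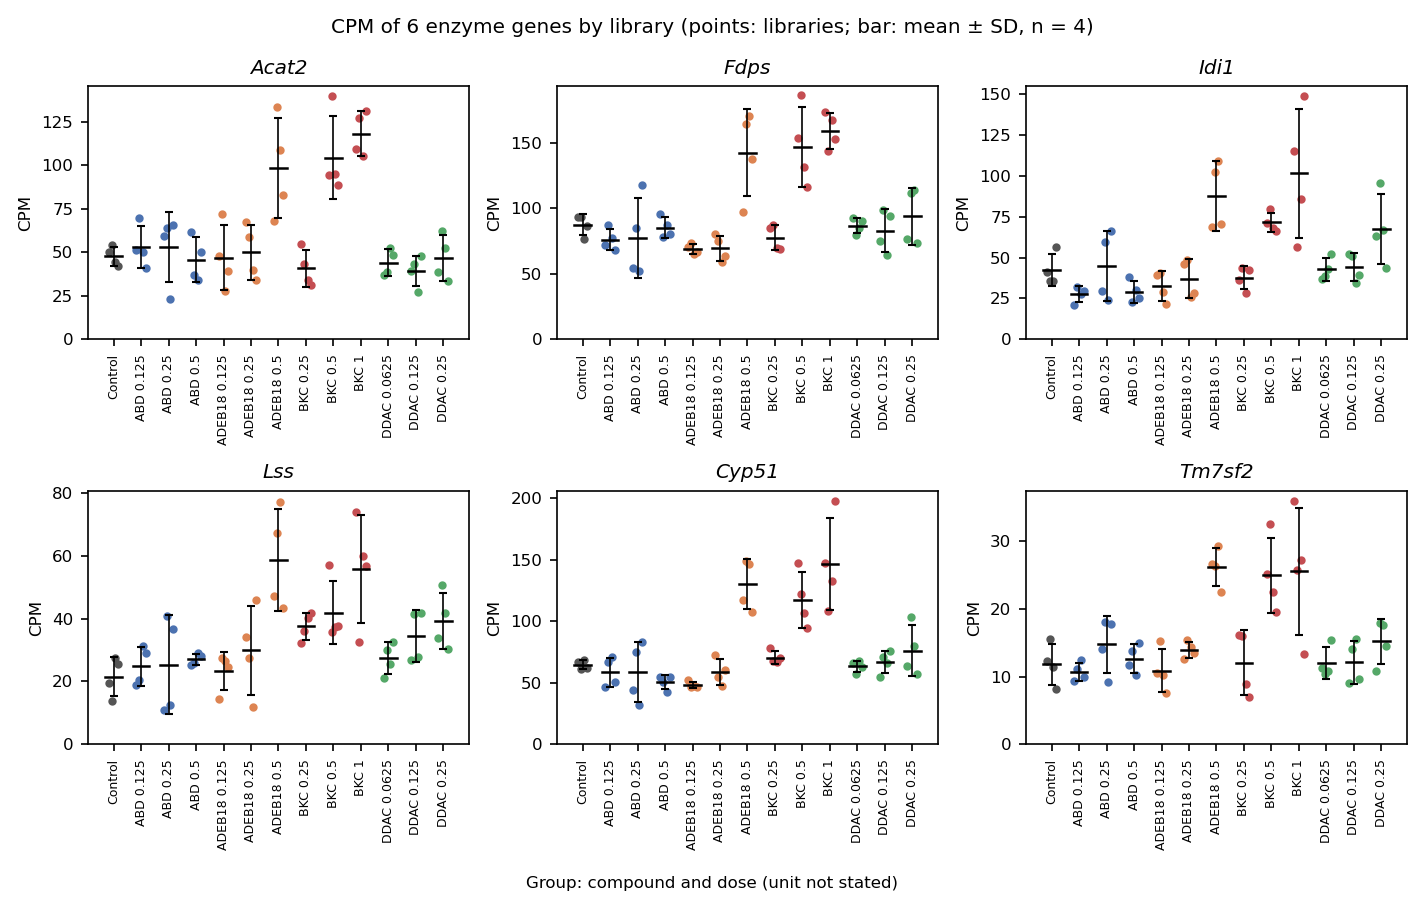
CPM of Acat2, Fdps, Idi1, Lss, Cyp51 and Tm7sf2 in every library (points) of Control and of the 12 dosed groups, with mean and SD (n = 4). The ADEB18 0.5, BKC 0.5 and BKC 1 points stand above Control in each panel, except for 1 BKC 1 lung in the Tm7sf2 panel.

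Added up over the 19 enzyme genes, the summed level of every lung in the same 3 groups was above Control. It ran from 999 to 1469 CPM in ADEB18 0.5 lungs, 1059 to 1375 CPM in BKC 0.5 lungs and 1151 to 1523 CPM in BKC 1 lungs, against 769 to 869 CPM in Control lungs. ADEB18 0.125 lungs, at 562 to 756 CPM, lay wholly below Control. The 3 DDAC groups spanned 705 to 730.0, 613 to 808 and 663 to 951 CPM from low to high dose, and overlapped or lay below Control. Relative to the group mean, the spread of this sum within a group was widest in ABD at 0.25, from 509 to 925 CPM. Enzyme genes went up and down together among lungs of that group: ABD 0.25 replicate 4 was above the group median for 18 of the 19 enzymes and replicate 2 for 16, while replicate 1 was above it for 3 and replicate 3 for 1. For Cyp51 these 4 lungs read 44.5, 74.8, 31.6 and 83.4 CPM in the order of their replicate numbers, and for Lss 10.8, 40.9, 12.6 and 36.7 CPM. In ADEB18 at 0.5, replicate 2 was above the group median for 17 of the 19 enzymes and replicate 1 for 3. Other groups showed the same: 18 for replicate 2 and 3 for replicate 1 in DDAC at 0.25. The counts were 18 for replicate 2 and 2 for replicate 3 in DDAC at 0.125, and 17 for replicate 1 and 3 for replicate 4 in BKC at 0.25. Control lungs were more even, at 13, 10, 8 and 7, as were DDAC 0.0625 lungs, at 10, 8, 9 and 11.

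Of the 4 genes of the SREBP2 switch itself, 1 rose against Control. Srebf2, the SREBP2 gene and one of its own targets, had 213, 226, 234 and 203 CPM in ADEB18 0.5 lungs, 220.3, 266, 192 and 198 CPM in BKC 0.5 lungs and 223, 234, 237 and 202 CPM in BKC 1 lungs, against 237, 250.2, 195 and 257 CPM in Control lungs. The groups overlapped, and the log2 fold changes of -0.10 ± 0.11, -0.10 ± 0.11 and -0.07 ± 0.11 did not pass (adjusted p = 0.675, 0.648 and 0.76). For BKC at 1 the 95% interval of the Srebf2 difference was -0.28 to 0.15, and its upper end is below the 0.87 measured for Fdps. Scap, which codes for the escort protein, read 73.8, 72.2, 65.2 and 74.1 CPM in ADEB18 0.5 lungs, 78, 77.3, 73.1 and 58.4 CPM in BKC 0.5 lungs and 63.9, 77.5, 71.7 and 67.7 CPM in BKC 1 lungs, against 69.7, 64, 68.6 and 57.1 CPM in Control lungs. These groups overlapped too, with log2 fold changes from 0.11 to 0.15 and an interval of -0.13 to 0.36 for BKC at 1.

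Insig1 and Insig2 code for the proteins that retain SCAP, and Insig1 is itself a target of SREBP2. Insig1 had 148, 219, 232 and 189 CPM in ADEB18 0.5 lungs, 166, 191, 129 and 182 CPM in BKC 0.5 lungs and 171, 128, 202 and 191 CPM in BKC 1 lungs, against 163, 127, 119 and 89.1 CPM in Control lungs. Each dosed group overlapped the highest Control lung. Insig1 rose by 0.66 ± 0.17 with ADEB18 at 0.5 (log2, adjusted p = 0.0174), a call lost without Control replicate 4, ADEB18 0.5 replicate 2 or ADEB18 0.5 replicate 3, and had 0.42 ± 0.17 (adjusted p = 0.109) and 0.48 ± 0.17 (adjusted p = 0.0635) with BKC at 0.5 and 1. Insig2, which is not induced by SREBP2, was called in none of the 28 comparisons, at 19.6, 9.88, 20.7 and 12.4 CPM in BKC 1 lungs, against 13.6, 10.3, 11.3 and 9.77 CPM in Control lungs. With DDAC at 0.125 Insig2 read 15.5, 18.2, 29.8 and 15.1 CPM, above all Control lungs (log2 fold change 0.80 ± 0.30, adjusted p = 0.16), as were 4.69% of all genes tested.

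Of the 4 genes of sterol and lipid handling, 1 rose with BKC at 0.5 and at 1, Soat1. Abca1, the efflux pump gene, averaged 54.4 ± 9.88 CPM in Control lungs, 87.1 ± 16.4 CPM with BKC at 0.25, 36.6 ± 14.6 CPM at 0.5 and 36.1 ± 5.73 CPM at 1 (SD, n = 4 each). Library by library it read 45.9, 67.2, 57.2 and 47.4 CPM in Control, 70.6, 82.8, 85.2 and 109.7 CPM at BKC 0.25, 45.5, 16.8, 49.4 and 34.6 CPM at BKC 0.5 and 38.6, 42.2, 35.1 and 28.7 CPM at BKC 1. The lowest dose stood above every Control lung, and the means at 0.5 and 1 lay below the Control mean. None of the 3 doses passed against Control (log2 fold change 0.68 ± 0.26, -0.57 ± 0.27 and -0.59 ± 0.27, adjusted p = 0.298, 0.18 and 0.154). Of all genes tested, 3.36% stood above every Control lung with BKC at 0.25. With DDAC, Abca1 read 92.7, 98, 70.4 and 67.8 CPM at 0.0625, 89.3, 105, 119 and 66.7 CPM at 0.125 and 86.9, 58, 53.7 and 106 CPM at 0.25, and its log2 fold changes of 0.60, 0.81 and 0.49 did not pass either (adjusted p = 0.243, 0.099 and 0.349).

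Soat1 codes for the acyltransferase that stores cholesterol as esters. It had 126, 132, 128 and 148 CPM in ADEB18 0.5 lungs, 143, 172, 175 and 110.2 CPM in BKC 0.5 lungs and 154, 186, 120.2 and 146 CPM in BKC 1 lungs, against 104, 118, 91 and 109.9 CPM in Control lungs. Only BKC 0.5 replicate 4 fell within the Control range. Soat1 rose by 0.50 ± 0.16 with BKC at 0.5 (adjusted p = 0.0315, lost in 5 of 8 leave-one-out fits) and by 0.52 ± 0.16 with BKC at 1 (adjusted p = 0.0253, lost without Control replicate 3 or BKC 1 replicate 2), and had 0.33 ± 0.15 with ADEB18 at 0.5 (adjusted p = 0.215).

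Lpin1, a phosphatidate phosphatase gene, read 27.4, 21.7, 23.1 and 16.6 CPM in BKC 1 lungs, against 23.9, 16.8, 35.8 and 53.2 CPM in Control lungs, which were spread over a wide range. Its log2 fold change of -0.55 ± 0.27 did not pass (adjusted p = 0.196), nor did any other comparison of Lpin1. Stard4, which codes for a carrier of cholesterol between membranes and is a known SREBP2 target, had log2 fold changes of -0.22 with BKC at 0.5 and -0.14 with BKC at 1, below the threshold. In DDAC 0.125 lungs Stard4 read 30.8, 37.2, 41.8 and 37.2 CPM, against 49.3, 39.7, 54.9 and 59.4 CPM in Control lungs, with 1 DDAC lung inside the Control range. The log2 fold change was -0.47 ± 0.13 (adjusted p = 0.0492), and the call was lost when any library of the comparison other than Control replicate 2 was left out.

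**Figure D3:**
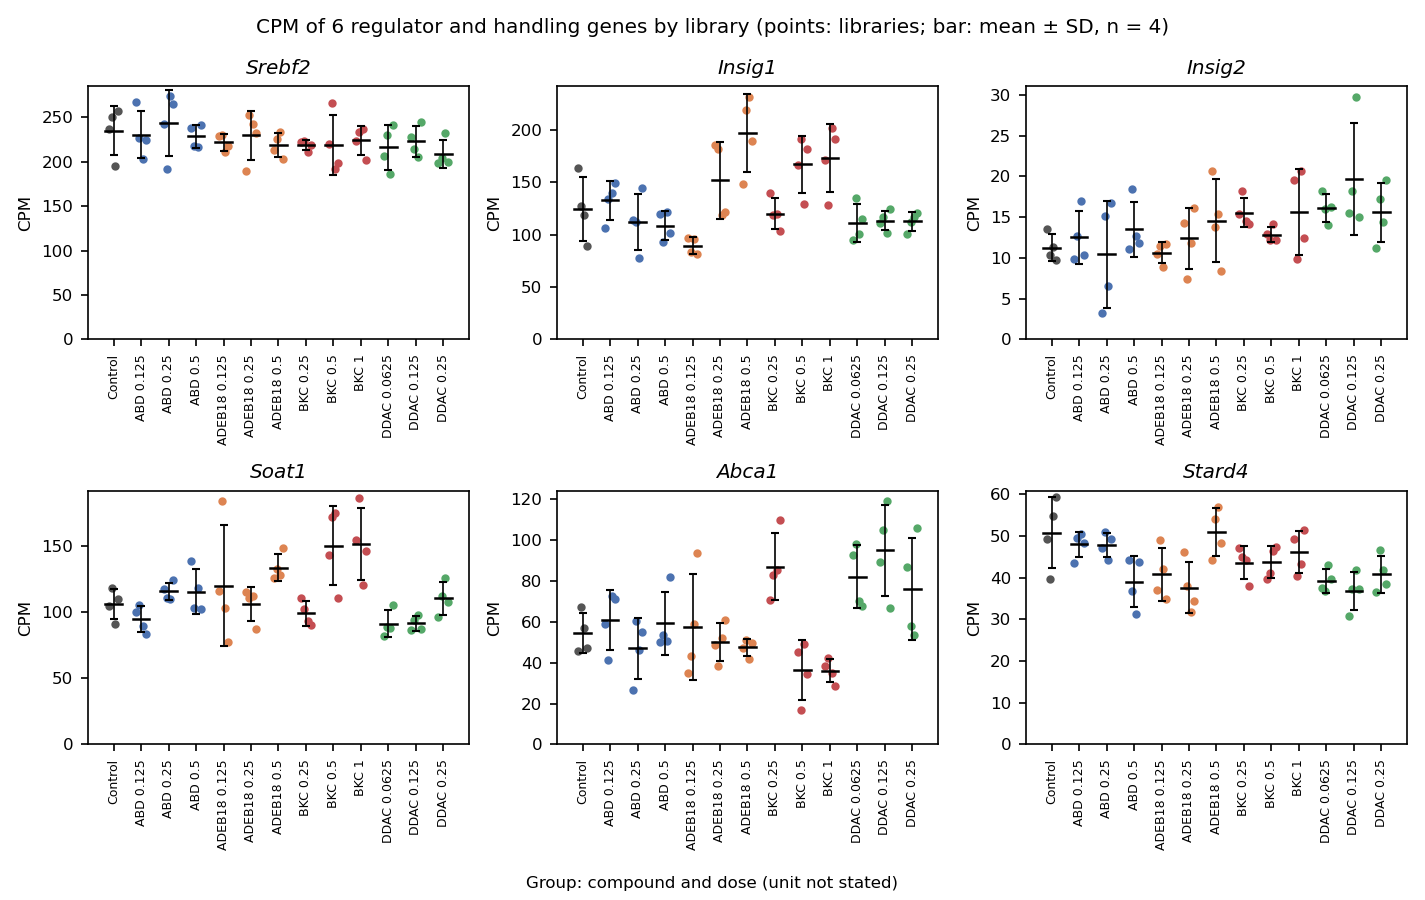
CPM of Srebf2, Insig1, Insig2, Soat1, Abca1 and Stard4 in every library (points) of Control and of the 12 dosed groups, with mean and SD (n = 4). Srebf2 means stay between 209 and 244 CPM. The Abca1 mean lies above Control at BKC 0.25 and at each DDAC dose, and below it at BKC 0.5 and 1. None of these Abca1 differences passed against Control.

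The comparison of the highest with the lowest dose of a compound leaves out the Control lungs. For BKC the steps between 0.25 and 1 moved more members than either dose did against Control: 15 members were higher at 1, where 2.72% of all genes were called higher, and Abca1 was lower, where 1.27% were called lower. Acat2 was higher by 1.53 ± 0.27 (log2, adjusted p = 0.000867), with 109, 127, 105 and 131 CPM at 1 and 54.6, 43.4, 34.3 and 31.1 CPM at 0.25. Hmgcs1, which did not pass against Control, differed by 0.91 ± 0.18 (adjusted p = 0.00277), at 125, 108, 167 and 183 CPM at 1 and 91.9, 73.4, 79.9 and 66.1 CPM at 0.25. Its mean was 113 CPM in Control, 77.8 CPM at BKC 0.25 and 146 CPM at BKC 1, so part of this step lay below the Control mean. The enzyme sum averaged 726 CPM at BKC 0.25 and 805 CPM in Control lungs, with overlapping ranges. Neither Acat2 nor Hmgcs1 overlapped between these doses, and 6.59% of all genes tested had every BKC 1 lung above every BKC 0.25 lung. Abca1 had a log2 fold change of -1.27 ± 0.27 (adjusted p = 0.0044), called in all 8 leave-one-out fits.

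The other members higher at BKC 1 than at BKC 0.25 were Mvd, Idi1, Fdps, Fdft1, Sqle, Cyp51, Tm7sf2, Msmo1, Nsdhl, Hsd17b7, Sc5d, Dhcr7 and Soat1, with log2 fold changes of 0.55 to 1.43. Lss differed by 0.57 ± 0.31 and did not pass. Of the 16 calls, Acat2, Hmgcs1, Idi1, Fdps, Cyp51, Msmo1 and Abca1 were made in every leave-one-out fit, and the count dropped to 7 without BKC 0.25 replicate 3 or 4, 9 without BKC 1 replicate 4 and 10 without BKC 1 replicate 2. It was also 10 with only the 2 groups in the fit.

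With ADEB18, 12 members were higher at 0.5 than at 0.125, where 1.7% of all genes were called higher. The enzyme sum of the 0.125 lungs lay below Control, as given above. By adjusted p Cyp51 came first, with a log2 fold change of 1.43 ± 0.20 (adjusted p = 3.17e-05), at 118, 149, 146 and 108 CPM at 0.5 and 52.2, 46.6, 47.2 and 47 CPM at 0.125. Insig1 had the next smallest adjusted p, with 1.14 ± 0.17 (adjusted p = 0.000197), at 148, 219, 232 and 189 CPM at 0.5 and 96.7, 83.7, 96 and 81.3 CPM at 0.125. Neither gene overlapped between the doses, and 6.85% of all genes tested had every 0.5 lung above every 0.125 lung. Hmgcs1 (1.13), Fdps (1.04), Msmo1 (1.02) and Sc5d (0.75) were also higher on the log2 scale, as were Acat2, Idi1, Fdft1, Lss, Tm7sf2 and Hsd17b7. Of all called genes in this comparison 69.7% were higher, and 56.4% with DESeq2 size factors in place of TMM.

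For ABD, 0 members differed between 0.5 and 0.125, where 0.0169% of all genes were called, with 1 member at an unadjusted p under 0.05 and 0 by DESeq2. For DDAC, 0 members differed between 0.25 and 0.0625, where 0.0225% were called, with 2 members at an unadjusted p under 0.05 and 0 by DESeq2.

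**Figure D4:**
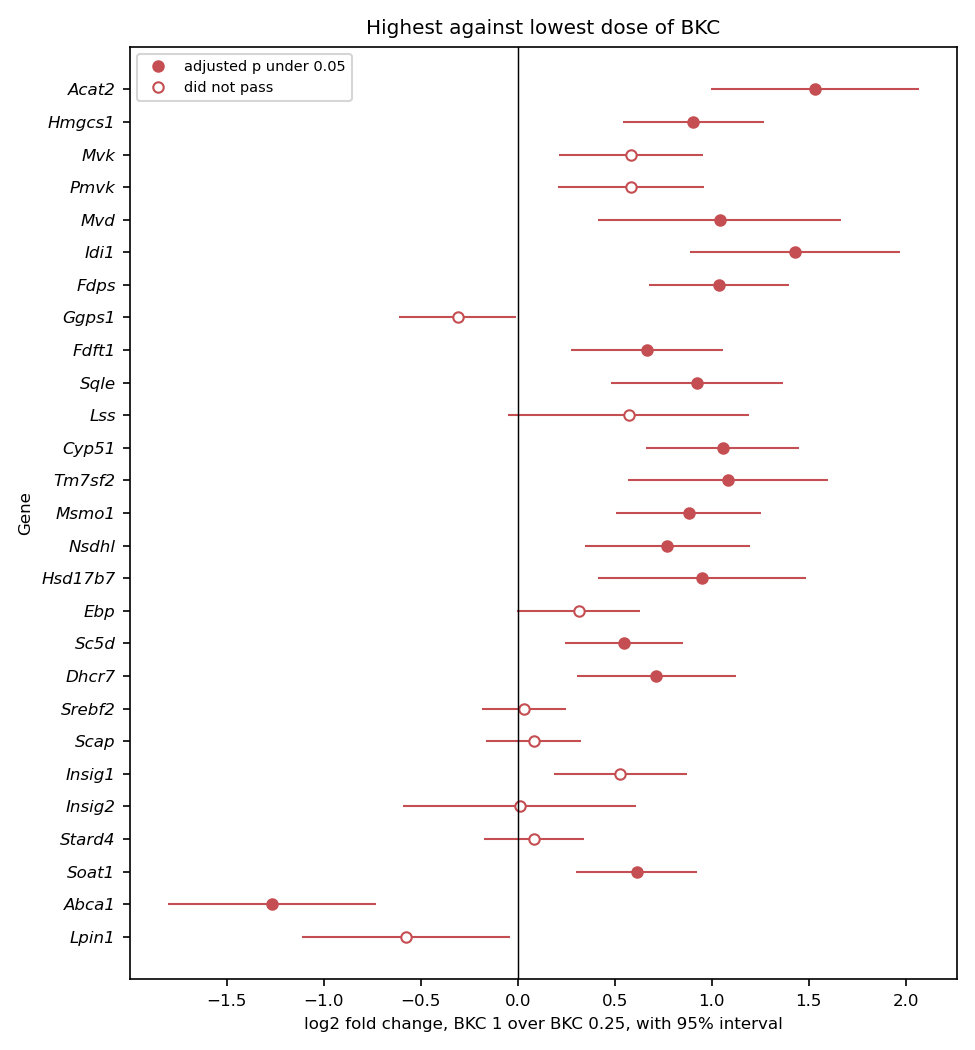
Log2 fold change of each member in BKC 1 over BKC 0.25 lungs with its 95% interval (unadjusted), filled where the adjusted p was under 0.05. All enzyme genes except Ggps1 lie right of 0, Srebf2 and Scap lie near it, and Abca1 lies left of it at -1.27.

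Compounds given at the same labelled dose value were compared with each other directly, in 12 pairs. At 0.5, members were higher with BKC and with ADEB18 than with ABD. Between BKC and ABD, 13 members were higher with BKC, where 4.41% of all genes were called higher. Between ADEB18 and ABD, 11 members were higher with ADEB18, where 1.88% were. Both pairs share the 4 ABD 0.5 lungs. For Cyp51 the log2 difference was 1.21 ± 0.20 for BKC over ABD (adjusted p = 0.000321) and 1.36 ± 0.20 for ADEB18 over ABD (adjusted p = 0.00023), with 147, 122, 107 and 94.3 CPM in BKC lungs and 118, 149, 146 and 108 CPM in ADEB18 lungs, against 55.1, 50.9, 42.5 and 55.1 CPM in ABD lungs. For Idi1 it was 1.29 ± 0.27 (adjusted p = 0.00218) and 1.59 ± 0.27 (adjusted p = 0.00207), with 38.2, 22.9, 30 and 25.2 CPM in ABD lungs. All dosed lungs of BKC and ADEB18 were above all ABD lungs for both genes, as for 6.87% (BKC) and 8.54% (ADEB18) of all genes tested.

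Dhcr7, the last reductase, passed here although it had not passed against Control, with 0.82 ± 0.20 for BKC over ABD (adjusted p = 0.00879) and 0.78 ± 0.20 for ADEB18 over ABD (adjusted p = 0.0245, lost in 5 of 8 leave-one-out fits). Its mean was 11.3 CPM in ABD 0.5 and 14.1 CPM in Control lungs, so part of these differences lay below the Control mean. The enzyme sum averaged 715 CPM in ABD 0.5 and 805 CPM in Control lungs, with overlapping ranges. Insig1 was higher by 0.62 ± 0.17 with BKC (adjusted p = 0.0168) and 0.86 ± 0.17 with ADEB18 (adjusted p = 0.00505). The count of 13 for BKC against ABD dropped to 8 without ABD 0.5 replicate 2, 7 without replicate 3 or 4 of ABD 0.5 and 6 without BKC 0.5 replicate 2. The count of 11 for ADEB18 against ABD dropped to 6 without ABD 0.5 replicate 3 or ADEB18 0.5 replicate 2 or 3, and to 7 without ABD 0.5 replicate 4.

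BKC and ADEB18 at 0.5 had 0 members called between them, where 0% of all genes were called, and 0 members had an unadjusted p under 0.05 or were called by DESeq2. This does not show that they act alike, since the intervals remain wide. The 95% interval of the log2 difference, BKC over ADEB18, was -0.54 to 0.24 for Cyp51, -0.44 to 0.61 for Acat2, -1.11 to 0.14 for Lss and -0.22 to 0.22 for Srebf2.

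**Figure D5:**
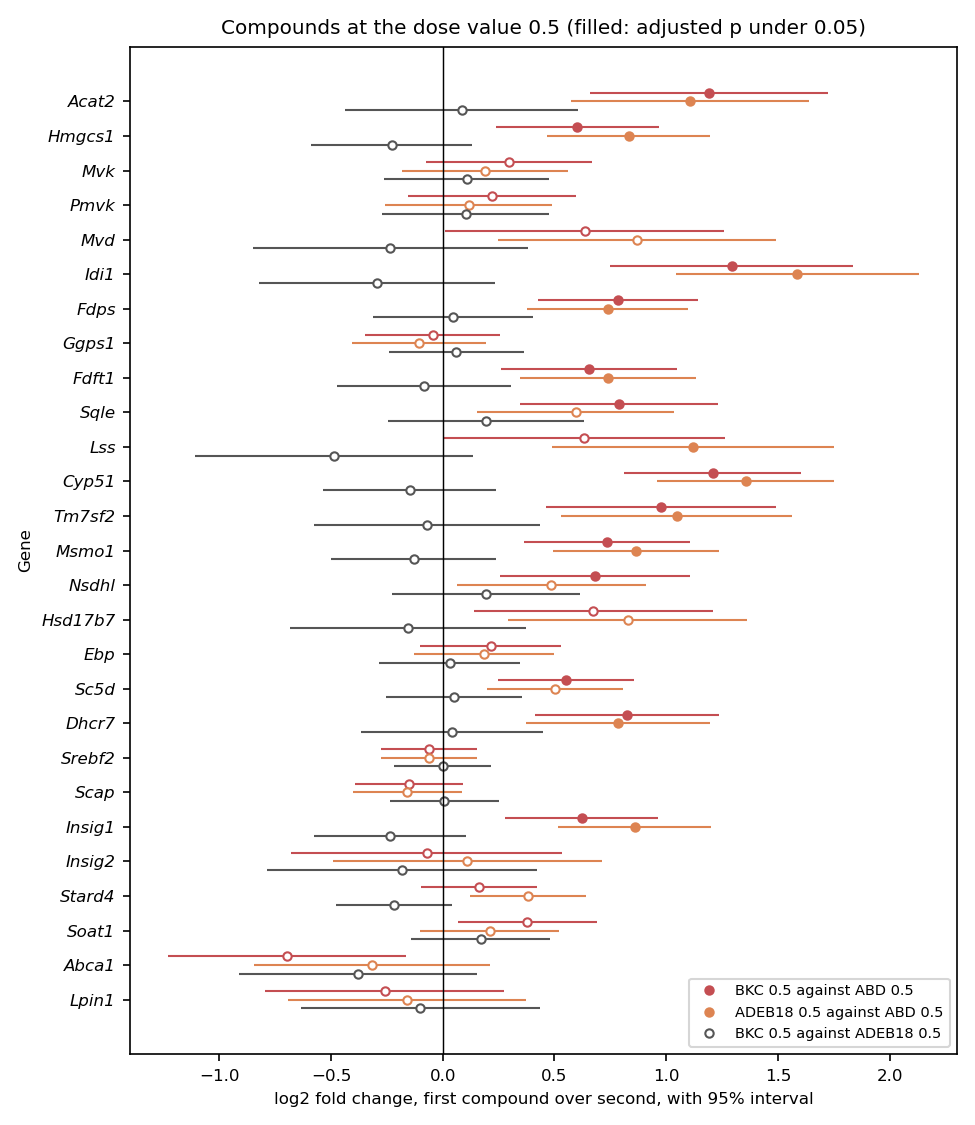
Log2 difference of each member between compounds at the dose value 0.5, with 95% intervals (unadjusted) and filled points where the adjusted p was under 0.05: BKC over ABD (13 filled), ADEB18 over ABD (11 filled) and BKC over ADEB18 (0 filled). For the enzyme genes the first and second comparison lie mostly right of 0 and the third lies around it.

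At 0.25 all 4 compounds could be compared and 0 members were called by edgeR in each of the 6 pairs. The share of all genes called was 0.129% for BKC against ABD, 0.0169% for ADEB18 against ABD, 1.29% for DDAC against ABD, 0% for BKC against ADEB18, 0.0337% for DDAC against BKC and 1.31% for DDAC against ADEB18. In that order 2, 5, 8, 1, 1 and 5 members had an unadjusted p under 0.05, and DESeq2 called 1, 0, 2, 0, 0 and 1. Of all called genes, 67.2% were higher with DDAC than with ABD and 56.9% with DESeq2 size factors, and 30.4% were higher with BKC than with ABD and 20.4% with those factors. DDAC against ABD reached 1 call without ABD 0.25 replicate 4 or DDAC 0.25 replicate 3, and DDAC against ADEB18 reached 1 without DDAC 0.25 replicate 4. At 0.125, ADEB18 against ABD, DDAC against ABD and DDAC against ADEB18 also had 0 members called by edgeR and by DESeq2, where 0.0169%, 1.97% and 1.05% of all genes were called, and 5, 6 and 5 members had an unadjusted p under 0.05. DDAC against ADEB18 at 0.125 reached 2 calls without ADEB18 0.125 replicate 4.

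Outside the members, 2 more sterol genes are described. Tmem97, a sterol-responsive membrane protein gene, rose by 0.84 ± 0.19 with BKC at 1 (adjusted p = 0.00263), at 70, 74.8, 67.6 and 97.5 CPM in BKC 1 lungs, against 38.9, 38.6, 42.2 and 53.4 CPM in Control lungs. With DDAC at 0.125 the same gene fell by 0.74 ± 0.19 on the log2 scale (adjusted p = 0.0345). Mbtps1, which codes for a protease that cuts SREBP2, fell by 0.29 ± 0.09 on the log2 scale with BKC at 1 (adjusted p = 0.0325).

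Of 15 genes of sterol efflux, uptake and storage, 2 rose with ADEB18 at 0.5, 3 rose and 1 fell with BKC at 0.5, and 3 rose and 2 fell with BKC at 1. Beside these counts, 2.56%, 4.86% and 5.79% of all genes rose in these groups, and 374, 764 and 812 of the 17796 genes fell. With DDAC at 0.0625, 0.125 and 0.25, 1, 2 and 2 of the 15 rose, where 165, 104 and 277 of the 17796 genes did: Mylip in each, with Soat2 at 0.125 and Ch25h at 0.25. Ch25h, which makes an oxysterol that restrains SREBP2, rose by 2.69 ± 0.41 with BKC at 1 (adjusted p = 5.50e-05), at 64.7, 23.6, 34.3 and 32.2 CPM in BKC 1 lungs, against 4.59, 8.84, 7.31 and 3.46 CPM in Control lungs. Npc2, which carries cholesterol out of lysosomes, rose by 1.31 ± 0.23 at the same dose (adjusted p = 0.00027), and Cyp27a1, another oxysterol-making enzyme gene, fell by 1.00 ± 0.21 on the log2 scale (adjusted p = 0.00165). In BKC 1 over BKC 0.25 lungs, Abcg1, an efflux pump gene under liver X receptors like Abca1, had a log2 fold change of -0.92 ± 0.18 (adjusted p = 0.00171). Of 15 genes of fatty acid synthesis, which the related factor SREBP1 controls, Scd alone was called with BKC at 1, as with BKC at 0.5 and DDAC at 0.25, and it fell by 1.42 ± 0.33 on the log2 scale (adjusted p = 0.00315). With ADEB18 at 0.5, 0 of the 15 were called by edgeR and 0 by DESeq2, with 1 at an unadjusted p under 0.05. Their median log2 fold change was -0.12 in both of these groups.

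Markers of several cell types and states were also called in the 3 groups where enzymes rose. Their counts stand beside 2.56%, 4.86% and 5.79% of all genes called higher in ADEB18 0.5, BKC 0.5 and BKC 1 lungs, and 374, 764 and 812 of the 17796 genes called lower, so that nothing is read from a single marker called in a list of 8 to 10. Of 16 cell cycle genes, 7 rose with ADEB18 at 0.5, 14 with BKC at 0.5 and 11 with BKC at 1, and their summed level was 965 to 1099, 900.5 to 1743 and 888 to 1370.2 CPM in these groups, against 504 to 658 CPM in Control lungs. Mcm6, a subunit of the replication helicase, rose by 1.03 with ADEB18 at 0.5 and 1.23 with BKC at 1 on the log2 scale. Of 14 recruited monocyte and macrophage markers, 5 rose and 1 fell with ADEB18 at 0.5, 7 rose with BKC at 0.5, and 8 rose and 1 fell with BKC at 1, and their sum was 2709.6 to 2822, 2367 to 4096 and 2383 to 4399.7 CPM, against 1513 to 1785 CPM in Control lungs. Rrm2 of the cell cycle genes and Mmp12 and Ms4a7 of the macrophage markers were at 0 in some libraries. The part of these cells in the rise of the sterol genes was not tested.

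Of 10 alveolar type 2 cell markers, 1 rose with BKC at 0.5 (Lamp3), and 3 rose (Lamp3, Slc34a2 and Napsa) and 1 fell (Etv5) with BKC at 1, and Etv5 fell with ADEB18 at 0.5. Their summed level was 18702 to 23488 CPM with ADEB18 at 0.5, 17969 to 22743 CPM with BKC at 0.5 and 16986 to 26202 CPM with BKC at 1, against 18743 to 20094 CPM in Control lungs, so the ranges overlapped. Of 10 endothelial markers, 6 fell with BKC at 0.5 and 3 with BKC at 1, and with ADEB18 at 0.5 edgeR called 0, DESeq2 called 4 and 8 had an unadjusted p under 0.05. The endothelial sum was 2131 to 2317, 1534 to 2390.2 and 1824 to 2405 CPM in ADEB18 0.5, BKC 0.5 and BKC 1 lungs, against 2637 to 3444 CPM in Control lungs. Of 10 club cell markers, 1 fell with ADEB18 at 0.5, 2 with BKC at 0.5 and 4 with BKC at 1, among them Cyp4b1 in all 3 groups. The club cell sum was 6227 to 7085, 4021 to 8725 and 2792 to 8738 CPM in ADEB18 0.5, BKC 0.5 and BKC 1 lungs, against 8274 to 11889 CPM in Control lungs, and Upk3a was at 0 in some libraries.

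Of 8 resident alveolar macrophage markers tested, 1 rose with BKC at 1 (Siglec1), and their sum was 517 to 682, 437 to 515 and 456 to 610.1 CPM in ADEB18 0.5, BKC 0.5 and BKC 1 lungs, against 546 to 689.6 CPM in Control lungs. Of 9 neutrophil markers tested, 1 fell with BKC at 1 (Ngp), and their sum was 282 to 580.1, 248 to 414 and 160.1 to 340.4 CPM in ADEB18 0.5, BKC 0.5 and BKC 1 lungs, against 272 to 570.2 CPM in Control lungs. The part of epithelial, endothelial, macrophage and neutrophil cells in the result was not tested.

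Circadian clock genes rose in the same 3 groups, and also in groups with no member called. Of 14 tested, 6 rose with ADEB18 at 0.5, 6 rose and 2 fell with BKC at 0.5, and 6 rose and 1 fell with BKC at 1. Of all genes tested, 2.56%, 4.86% and 5.79% rose in these groups, and 374, 764 and 812 of the 17796 fell. With DDAC at 0.25, where 0 members were called by edgeR, 8 rose and 2 fell, and Nr1d2 rose by 1.55 ± 0.16 (adjusted p = 3.02e-08). In that group 277 of the 17796 genes rose and 162 fell. The summed level of the 14 clock genes was 589 to 625 CPM in ADEB18 0.5 lungs, 437 to 756 CPM in BKC 1 lungs and 877 to 1062 CPM in DDAC 0.25 lungs, against 326 to 391 CPM in Control lungs. This sum also lay above all Control lungs in ABD 0.25 (539 to 596 CPM), ADEB18 0.125 (498 to 687 CPM), ADEB18 0.25 (554 to 826 CPM) and BKC 0.25 (647 to 824 CPM). The same held for BKC 0.5 (526 to 826 CPM), DDAC 0.0625 (626 to 816 CPM) and DDAC 0.125 (817 to 994 CPM), while ABD 0.125 and ABD 0.5 overlapped Control. The sources used here do not give the hour at which lungs were taken, and its part in the result was not tested.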

How the data were processed

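Lung RNA of 52 rats was measured, 4 per group, and each library is 1 lung. RNA was extracted with Trizol and made into Lexogen QuantSeq 3' mRNA libraries, per the labels' protocols. The deposited files hold read counts per gene symbol, 1 file per library, as raw counts by the authors. The tools HTSeq, STAR and fastp and the build mRatBN7.2 are named, with no version or order, in the submitters' processing notes. For annotation and strand setting, nothing is given in the sources used here. Of 34034 symbols, 29433 matched the reference gene table, as did 27 of 27 members. Counts of genes that overlap another gene, or have a near-identical copy, are uncertain.

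Counts were fitted with edgeR 4.0.16 (R 4.3.3, limma 3.58.1): glmQLFit and glmQLFTest after filterByExpr and TMM scaling, with all 13 groups as terms of 1 fit on 39 residual degrees of freedom. The 28 comparisons were 12 with Control, 4 of the highest with the lowest dose and 12 between compounds at 1 dose value. The two-sided p-values were adjusted by Benjamini-Hochberg over 17796 genes and called under 0.05. Each p-value sets a difference between groups against the spread between rats within groups, estimated over all 13 groups. Alternatives were DESeq2 1.42.0, its size factors in edgeR, no filter, the 2 groups alone, a replicate block and leaving out each library. SE come from the edgeR fit, and CPM use TMM library sizes. The procedure was tested on simulated data.

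The members and gene lists were chosen with earlier results of these data known. Library values are given for up to 8 called members by smallest adjusted p and for the regulators and Abca1, Soat1 and Lpin1. Up to 3 genes of each list outside the members are named by smallest adjusted p, and some results of the list of other sterol genes are not reported here. Library values of Hmgcs1 and Stard4, the naming of Napsa, and the search for TCACACGAG, were added after values were seen. Promoters are from RefSeq on GRCr8, which is not the build of the files, and no coordinate was converted.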

Additional observations from a re-analysis of the deposited data

Results flagged for a closer look

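In 8 of 195 groups of 4 libraries looked at, 1 library lay far from the other 3 by Dixon's criterion, and chance gives about 1 in 20. Within dosed groups, Acat2 stood at 23.2 CPM in ABD 0.25 replicate 3, far below the other 3 lungs, and at 139.8 CPM in BKC 0.5 replicate 2, far above them. Lss stood at 57 CPM in BKC 0.5 replicate 1, above the other 3. Cyp51 was 52.2 CPM in ADEB18 0.125 replicate 1, above 3 lungs that nearly coincided. Srebf2 was 233 CPM in DDAC 0.25 replicate 3 and Abca1 was 81.9 CPM in ABD 0.5 replicate 4, each above its group. Soat1 was 86.9 CPM in ADEB18 0.25 replicate 4, below its group. Among Control lungs, Hsd17b7 was 15.5 CPM in replicate 4, above the other 3.

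At the dose value 0.5, the response differed between compounds by edgeR's test of the difference itself. BKC against ABD had 13 members called, where 4.41% of all genes were called higher, and ADEB18 against ABD had 11, where 1.88% were, all higher than with ABD. Leaving out 1 library brought either count down to 6 at the lowest. BKC against ADEB18 had 0 called by edgeR and 0 by DESeq2, with 0 at an unadjusted p under 0.05.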

How the results depend on the processing

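Of 58 calls on named members, 7 were lost with the 2 groups alone in the fit and 1 with no filter on low counts. With DESeq2 size factors in edgeR, the DESeq2 Wald test and the replicate block, 0 were lost. Leave-one-out fits lost 75 of 464, and 0 changed direction in any of these settings. Several named members were picked for their smallest adjusted p against Control, so the tally leans to the firmest calls. Calls on the other members are outside it. Of those, Mvd with ADEB18 at 0.5 and Sqle with BKC at 0.5 were each lost with no filter and in 7 leave-one-out fits. Stard4 with DDAC at 0.125 was lost with no filter, the 2 groups alone, the replicate block and in 7 leave-one-out fits. Hmgcs1 with ADEB18 at 0.5 over 0.125 was lost in 0 of these. For BKC 1 against BKC 0.25, 10 members were called with the 2 groups alone, against 16 in the fit of all groups. For DDAC 0.0625 against Control, 1 was called with the 2 groups alone and 1 by DESeq2, against 0. For DDAC 0.125 against Control, 0 were called with no filter, 0 with the replicate block and 2 by DESeq2, against 1. DESeq2 called 1 for BKC 0.25 against ABD 0.25, 2 for DDAC 0.25 against ABD 0.25 and 1 for DDAC 0.25 against ADEB18 0.25, each against 0 by edgeR. The cause of these changes was not tested.

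Leaving out 1 library at a time gave 3 to 11 members called for ADEB18 0.5 against Control, 4 to 9 for BKC 0.5, 9 to 13 for BKC 1 and 0 to 1 for DDAC 0.125. It gave 9 to 12 for ADEB18 0.5 against 0.125, 7 to 16 for BKC 1 against 0.25, 6 to 14 for BKC 0.5 against ABD 0.5 and 6 to 13 for ADEB18 0.5 against ABD 0.5. DDAC 0.25 against ABD 0.25 and against ADEB18 0.25 gave 0 to 1 each, and DDAC 0.125 against ADEB18 0.125 gave 0 to 2. The other comparisons stayed at 0.

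Replicate numbers did not pair libraries across groups: over 312 pairs with the same number the mean correlation of deviations was 0.00387, against -0.00127 for different numbers, and 12 of 52 libraries correlated best with their own number. Apart from DDAC 0.125, the replicate block gave 12 members against 11 for ADEB18 0.5 over ABD 0.5, 9 against 8 for BKC 0.5 over Control and 17 against 16 for BKC 1 over 0.25, and left the other counts as they were. Members such as Mvd and Hsd17b7 had SE of 0.27 to 0.31 with 4 lungs a group. Hsd17b7 passed only narrowly at a log2 fold change of 0.84 with BKC at 0.5 over Control (adjusted p = 0.0388 by edgeR), so smaller differences could be missed.

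Over all genes, DESeq2 called more than edgeR: 1279 against 829 for ADEB18 0.5 over Control, 127 against 37 for BKC 0.25, 735 against 412, 576 against 263 and 805 against 439 for DDAC at 0.0625, 0.125 and 0.25, 703 against 435 for ADEB18 0.5 over 0.125 and 1076 against 710 for BKC 1 over 0.25. Between compounds it called 1070 against 624 for ADEB18 over ABD at 0.5, 173 against 23 for BKC over ABD, 28 against 3 for ADEB18 over ABD, 537 against 229 for DDAC over ABD, 31 against 6 for DDAC over BKC and 545 against 233 for DDAC over ADEB18 at 0.25, and 699 against 350 for DDAC over ABD and 476 against 187 for DDAC over ADEB18 at 0.125. The comparisons of ABD doses, ADEB18 0.125 with Control, DDAC 0.25 with 0.0625, ADEB18 with ABD at 0.125 and BKC with ADEB18 at 0.5 had at most 7 genes by edgeR and at most 30 by DESeq2.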
